A study of Mus musculus with 6 samples.

Results

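MAP kinase signals are limited by proteins that the signals themselves induce, and 9 genes for such proteins were examined in WT and GPR174-deficient B cells: the dual-specificity phosphatase genes Dusp1, Dusp2, Dusp4, Dusp5, Dusp6 and Dusp10, the Sprouty genes Spry1 and Spry2, and Spred1. They were taken by name from a count table of 12431 genes, of which 8 of the 9 were rows. Dusp5 was not among the rows and was not analysed here. Of the 8, 7 passed a filter on low counts, and Spry1 did not. After 1 h of culture, transcripts of Dusp1 and Dusp2, both encoding nuclear phosphatases, were more abundant in WT than in GPR174-deficient B cells. Dusp1 was 69.8% higher and Dusp2 21.0% higher in WT by mean level. No member was called lower in WT. In bulk RNA, fewer cells of a type and less RNA per cell cannot be told apart.

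The cells were follicular B cells (CD21/35- CD23+) sorted from the spleens of adult male mice and cultured for 1 h in serum-containing RPMI medium with no stimulus added. WT mice were Gpr174+/Y and GPR174-deficient mice (KO) were Gpr174-/Y, with 3 libraries of each. In KO mice a tdTomato reporter was placed in frame in the position of the single coding exon of the X-linked Gpr174 gene. The allele is a germline one and was not restricted to B cells. Total counts were between 8452460 and 10944833 per library, and replicates within a genotype differed by more than sampling noise. Gpr174 counts remained in KO libraries, at 99.8, 100.1 and 99.7 CPM against 135.7, 125.3 and 121.4 CPM in WT. Reads primed at the end of the transcript can lie outside the replaced coding sequence, so this level does not check the genotype labels. Levels are given as CPM, read counts per 1000000 counts of the TMM-scaled library size. The libraries were primed at the 3′ ends of transcripts, so counts do not scale with transcript length and CPM were not divided by length when genes were compared. The sources do not tie each library to a mouse, so p-values measure only the spread between these libraries, which may be technical.

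ERK, p38 and JNK, the MAP kinases, are switched on by phosphorylation of a threonine and a tyrosine in the activation loop, and dual-specificity phosphatases remove both phosphates. Dusp1, Dusp2, Dusp4 and Dusp5 encode nuclear enzymes whose genes are induced within minutes to hours by the kinases they inactivate or by other signals, including cAMP for Dusp1. Dusp6, Dusp7 and Dusp9 encode cytoplasmic phosphatases selective for ERK. Dusp8, Dusp10 and Dusp16 encode phosphatases that act mainly on p38 and JNK and are found in both compartments. Sprouty and Spred proteins act further upstream, where they hold back the activation of Ras and Raf. In B cells, ERK is activated by the B cell receptor, and Dusp2 was described early as a phosphatase of activated lymphocytes.

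Promoter sequences are shown for 3 phosphatase genes that differ in their sites for cAMP-responsive factors, because GPR174 signals through a G protein that raises cAMP. Sequences are from RefSeq (GRCm38.p6) and were matched by symbol for 13 of the 17 genes of the phosphatase classes and the Sprouty and Spred family; Dusp4, Dusp9, Spry3 and Spry4 had no entry. Each line gives the 250 bases before the annotated start, 5′ to 3′ on the strand of the gene, at chr17:26508473-26508722 on the minus strand for Dusp1, chr2:127335909-127336158 on the plus strand for Dusp2 and chr7:142095285-142095534 on the minus strand for Dusp8. Capitals mark TGACG on either strand, the shorter form of a cAMP response element, and TGACGTCA marks the full palindrome.
Dusp1: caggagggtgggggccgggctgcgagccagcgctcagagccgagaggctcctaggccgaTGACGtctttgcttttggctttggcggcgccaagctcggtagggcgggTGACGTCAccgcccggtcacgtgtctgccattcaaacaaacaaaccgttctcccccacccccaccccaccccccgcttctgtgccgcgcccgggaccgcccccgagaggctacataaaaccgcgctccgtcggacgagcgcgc
Dusp2: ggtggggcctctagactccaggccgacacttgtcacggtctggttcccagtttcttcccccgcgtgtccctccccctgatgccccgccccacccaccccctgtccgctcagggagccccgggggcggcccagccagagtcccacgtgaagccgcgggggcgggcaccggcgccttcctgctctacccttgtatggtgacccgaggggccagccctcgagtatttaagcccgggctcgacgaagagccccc
Dusp8: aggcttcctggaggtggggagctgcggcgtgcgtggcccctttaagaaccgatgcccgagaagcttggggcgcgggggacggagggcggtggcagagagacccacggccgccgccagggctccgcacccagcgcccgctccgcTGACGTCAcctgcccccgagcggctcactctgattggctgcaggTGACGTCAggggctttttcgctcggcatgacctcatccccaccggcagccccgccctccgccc

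The full element TGACGTCA was present once in the Dusp1 window, beginning 143 bases before the start, with a further short element beginning 191 bases before it. Dusp8 held 2 full elements, beginning 107 and 63 bases before the start. Dusp2 held neither form in the 250 bases shown, and 1 short element began 5 bases after its start. Dusp16, Dusp5 and Spred2 each held 1 short element, and Dusp6, Dusp7, Dusp10, Spry1, Spry2 and Spred1 held neither in windows that also covered 50 bases after the start. Of 32851 promoter windows of 300 bases in the reference, 1.79% held the full element and 20.8% the short element, on either strand. Among 7633 genes tested here that had a promoter entry, the shares were 3.9% and 37%. Each full element holds the short element on both strands. The AP-1 site TGACTCA, found in 5.2% of windows, was in 0 of the 13 matched genes. Positions of these elements hold for the RefSeq starts. The GENCODE spans of Dusp1 and Dusp8, both on the minus strand, begin further upstream, at 26562128 and 142095843. These matches describe letters in a window and were not tested against the counts.

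Dusp1 (chromosome 17, 26505590 to 26562128, mm10) encodes the founding member of the nuclear inducible class, which acts on p38, JNK and ERK. Its level was 67.9, 71.6 and 66.7 CPM in WT replicates 1 to 3, and 41.3, 40.3 and 39.8 CPM in KO replicates 1 to 3. Every WT library lay above every KO library, and both groups were tight, with a coefficient of variation of 3.72% in WT and 1.83% in KO. Mean ± SD (n = 3) was 68.7 ± 2.56 CPM for WT against 40.5 ± 0.74 CPM for KO. The log2 fold change, WT over KO, was 0.76 ± 0.11 (SE), with a 95% interval of 0.53 to 1.00 and an FDR (Benjamini-Hochberg adjusted p) of 0.000121 in edgeR's quasi-likelihood test over 10514 genes. Omitting any single library kept the call, with an edgeR FDR between 0.000374 and 0.00301. In GENCODE, exons of Dusp1 overlap exons of Ergic1 on the opposite strand. No exon of another gene lies in the last 1000 bases of Dusp1, near which 3′-primed reads begin, and the use of strand in counting was not stated.

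Dusp2 (chromosome 2, 127336159 to 127338376) encodes a nuclear phosphatase found mainly in blood and immune cells. It was by far the most abundant member, at rank 40 of the 12431 genes by mean CPM. Its level was 1946, 2041 and 1965 CPM in WT and 1615, 1574 and 1732 CPM in KO. The groups did not overlap, and the difference was smaller in proportion than for Dusp1. Mean ± SD (n = 3) was 1984 ± 50.0 CPM for WT against 1640.2 ± 81.6 CPM for KO. The log2 fold change was 0.27 ± 0.06 (SE), with a 95% interval of 0.15 to 0.40 and an edgeR FDR of 0.0107. Omitting KO replicate 1 or KO replicate 2, the KO libraries with the lower Dusp2 levels, ended the call (edgeR FDR 0.0716 and 0.108), and omitting any of the other 4 libraries kept it. No annotated gene overlaps Dusp2.

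Against the background, 2 of the 7 tested members were called at an adjusted p under 0.05, where 1.82% of all tested genes were called. Both were higher in WT, as were 1.3% of tested genes, and 0 were lower, as were 0.514%. WT and KO libraries did not overlap for these 2 members alone, and did not overlap in 16.7% of tested genes. DESeq2 and limma-voom called the same 2 members and no other, but DESeq2 gave no adjusted p for Spry2 and Spred1.

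**Figure D1:**
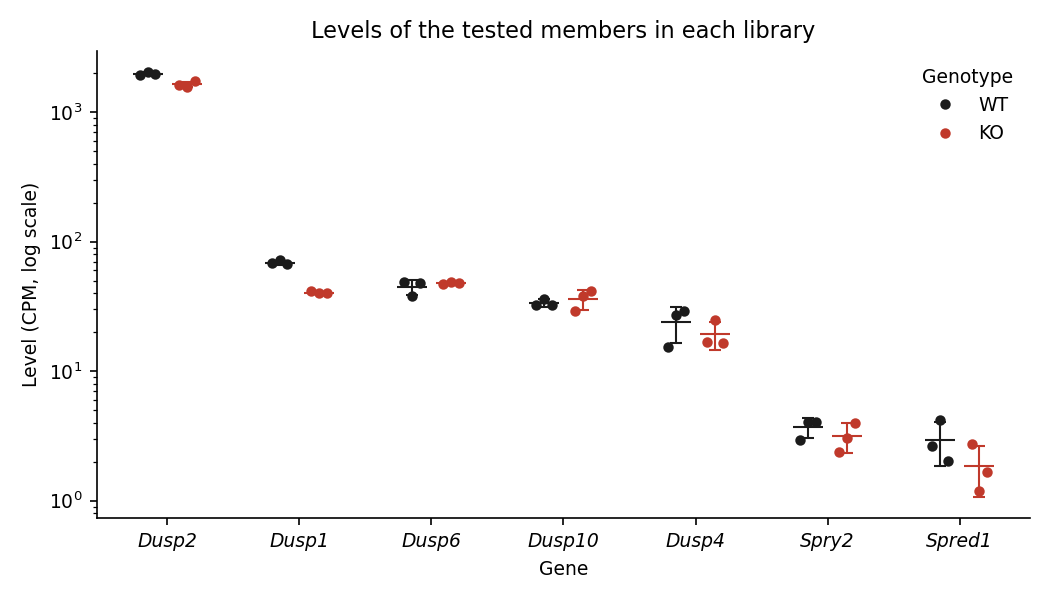
CPM of the 7 tested members (log axis) in each library, with WT in black and KO in red; points are libraries, bars the mean and SD. For Dusp2 and Dusp1 all WT points lie above all KO points, while for the other 5 genes the groups overlap.

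Dusp4 (chromosome 8, 34807297 to 34819894), the third nuclear inducible gene in the table, encodes a phosphatase of ERK, p38 and JNK. Its level was 15.4, 26.9 and 29.4 CPM in WT and 16.8, 24.7 and 16.4 CPM in KO. The groups overlapped, since WT replicate 1 held the lowest value of all 6. Its log2 fold change was 0.30 ± 0.22 (SE), close to that of Dusp2, but its 95% interval of -0.16 to 0.77 took in zero and its edgeR FDR was 0.662. The estimate ranged from 0.12 to 0.55 over fits that left out one library.

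Dusp6 (chromosome 10, 99263231 to 99267489) is the member whose product is a cytoplasmic ERK phosphatase, and its transcript is itself induced by ERK. Its level was 48.6, 38.01 and 47.9 CPM in WT and 47.1, 49.0 and 48.1 CPM in KO. The KO values were tight, at a coefficient of variation of 1.99%, and WT replicate 2 lay below the other 5 libraries. The log2 fold change was -0.10 ± 0.13 (SE), with a 95% interval of -0.36 to 0.16 and an edgeR FDR of 0.828. Without WT replicate 2 the log2 fold change was 0.01. The interval excluded a difference as large as that of Dusp1 in either direction. Dusp7 (chromosome 9, 106368632 to 106375724), the other cytoplasmic gene in the table, is not one of the 9 members. It was at 14.7, 9.17 and 10.9 CPM in WT and 16.4, 17.2 and 13.5 CPM in KO. Its groups overlapped through WT replicate 1, and its log2 fold change of -0.43 ± 0.23 (SE) had an edgeR FDR of 0.478. Dusp9 was not among the rows and was not analysed here.

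Dusp10 (chromosome 1, 184013302 to 184075636) encodes a phosphatase of p38 and JNK. Its level was 32.2, 36.3 and 32.7 CPM in WT and 29.2, 38.1 and 41.4 CPM in KO, so that the WT values lay inside the KO range. The log2 fold change was -0.10 ± 0.15 (SE), with a 95% interval of -0.41 to 0.20 and an edgeR FDR of 0.849, and it was 0.00 without KO replicate 3. The related genes Dusp8 and Dusp16 differed by 0.27 ± 0.25 and 0.05 ± 0.10 (SE) on the log2 scale, at edgeR FDRs of 0.757 and 0.901. Dusp8 was at 12.7, 21.8 and 20.9 CPM in WT and 16.8, 19.6 and 9.45 CPM in KO, and the groups overlapped.

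Sprouty and Spred transcripts were scarce. Spry2 (chromosome 14, 105891947 to 105896819), which encodes an inhibitor of receptor signals to Ras, held 32, 34 and 36 counts in WT and 26, 28 and 41 in KO. Its log2 fold change was 0.23 ± 0.46 (SE), at an edgeR FDR of 0.896. Spred1 (chromosome 2, 117121374 to 117182279), which encodes a protein that brings the Ras inhibitor neurofibromin to the membrane, held 29, 35 and 18 counts in WT and 30, 11 and 17 in KO. Its log2 fold change was 0.65 ± 0.56 (SE), at an edgeR FDR of 0.721. The 95% intervals were wide, from -0.72 to 1.18 for Spry2 and from -0.50 to 1.80 for Spred1, so that a change of the size seen for Dusp1 was not detectable at this depth. Spry1 (chromosome 3, 37639947 to 37644598) held 0, 5 and 2 counts in WT and 4, 0 and 3 in KO, a total of 7 counts in each genotype, and was not tested. Of the family's other genes, Spred2 had a log2 fold change of -0.61 ± 0.68 (SE; edgeR FDR 0.797), and Spry4, with 1 count in WT and 11 in KO, did not pass the filter. Spry3 and Spred3 were not among the rows.

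**Figure D2:**
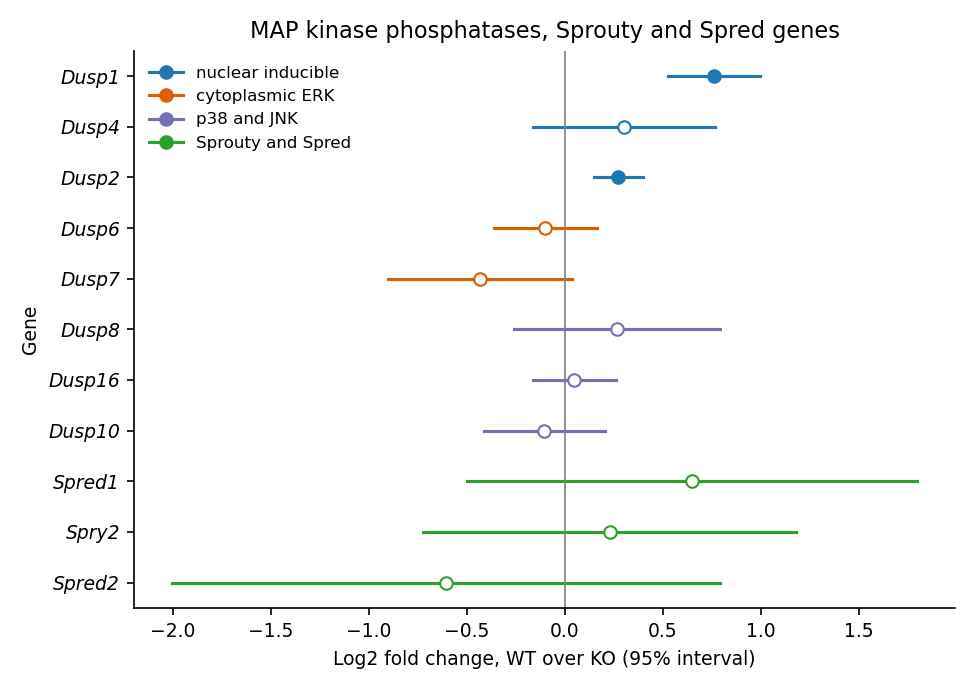
Log2 fold change, WT over KO, with its 95% interval for the tested MAP kinase phosphatase, Sprouty and Spred genes, coloured by class; filled points were called at an adjusted p under 0.05. The filled points are Dusp1 at 0.76 and Dusp2 at 0.27, and the intervals of the other genes cross zero.

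Nuclear inducible and cytoplasmic phosphatases were then set side by side. Of the 4 nuclear inducible genes 3 were tested, 2 were called higher in WT, and the log2 fold changes ran from 0.27 to 0.76. Of the 3 cytoplasmic genes 2 were tested, 0 were called, and the log2 fold changes were -0.10 and -0.43. Of all tested genes 1.82% were called, and 1.3% were called higher in WT. A count of 0 of 2 is near that background. Summed over the class, nuclear inducible transcripts were at 2029.75, 2139 and 2061 CPM in WT and 1673, 1639 and 1788 CPM in KO, a ratio of WT to KO means of 1.22. Dusp2 made up between 95.3% and 96.9% of that sum. Without Dusp2 the sum was 92.6 CPM ± 8.19 in WT and 59.8 CPM ± 4.65 in KO (SD, n = 3), a ratio of 1.55. Most of that smaller sum was Dusp1, at means of 68.7 CPM in WT and 40.5 CPM in KO. The rest was Dusp4, which was not called. Cytoplasmic transcripts summed to 63.3, 47.2 and 58.8 CPM in WT and 63.5, 66.2 and 61.7 CPM in KO, a ratio of 0.885, and the groups overlapped. The p38 and JNK class had a ratio of 1.03. The classes hold 2 or 3 tested genes each, and the difference between them was not tested.

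The order of levels among members differed between genotypes at one place. In both genotypes Dusp2 stood far above all others, Dusp4 had the lowest mean of the Dusp members, and Spry2, Spred1 and Spry1 followed. In WT, Dusp1 was second in every library and lay above Dusp6, whose values did not overlap with it. In KO, Dusp6 was second, at 47.1 to 49.0 CPM against 39.8 to 41.3 CPM for Dusp1. The level of Dusp1 in KO lay within the range of Dusp10 there, so those neighbours did not differ beyond their spread. Dusp10 lay below Dusp6 and above Dusp4 without overlap in both genotypes. The ranges of Spry2 and Spred1 overlapped in both genotypes.

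This change of order can be followed within single libraries. The ratio of Dusp1 to Dusp6 was 1.40, 1.88 and 1.39 in WT and 0.876, 0.822 and 0.828 in KO, above 1 in all WT and below 1 in all KO libraries. The ratio of Dusp2 to Dusp6 was 40.0, 53.7 and 41.1 in WT and 34.3, 32.1 and 36.0 in KO. The ratio of Dusp1 to Dusp2, both nuclear, was 0.0349, 0.0351 and 0.0339 in WT and 0.0256, 0.0256 and 0.023 in KO, and was thus tight in each genotype and higher in WT. WT replicate 2 had both the highest ratios to Dusp6 and the lowest Dusp6 level. No test was made on these ratios, whose parts are also in the fits above.

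**Figure D3:**
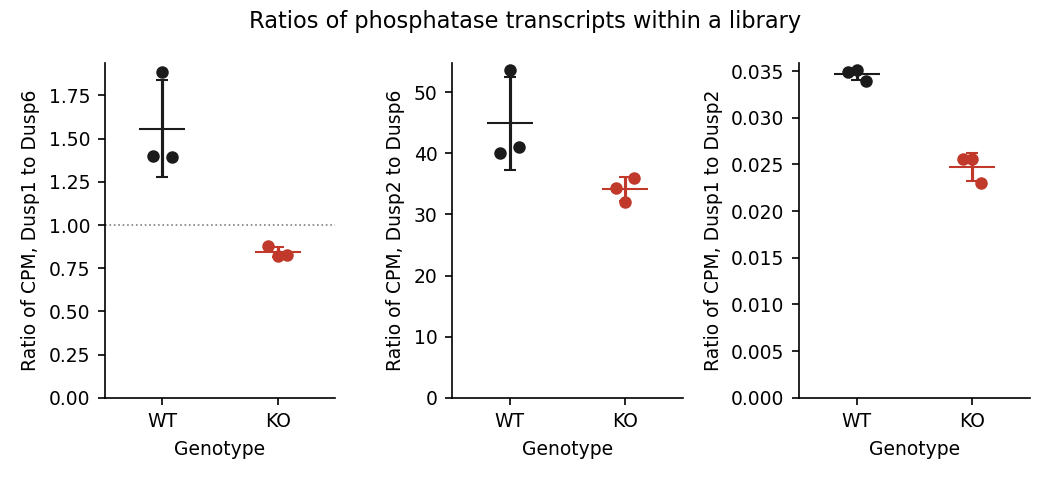
Ratios of CPM within each library for Dusp1 to Dusp6, Dusp2 to Dusp6 and Dusp1 to Dusp2, with axes from 0; points are libraries, bars the mean and SD, and the dotted line marks a ratio of 1. All WT points lie above all KO points in each panel, and Dusp1 to Dusp6 is above 1 in WT and below 1 in KO.

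Other genes of the MAP kinase pathways were taken by list, and the called genes of the lists given here were immediate early genes. With 1.82% of all tested genes called, a count of 0 in lists of this size is near the background and sets no list apart. Among 11 tested other dual-specificity phosphatases 0 were called (8 listed genes were not tested), with a median log2 fold change of -0.11 against -0.003 over all tested genes. At an unadjusted p under 0.05 there was 1, Dusp18, at 2.83, 8.58 and 3.63 CPM in WT and 5.55, 12.3 and 9.35 CPM in KO, with an edgeR FDR of 0.36. It was called lower without WT replicate 2 (edgeR FDR 0.0276). Among 11 tested MAP kinases 0 were called and 3 had an unadjusted p under 0.05. The ERK gene Mapk3 had a log2 fold change of -0.07 ± 0.11 (SE). Mapk12, a p38 kinase, had the largest absolute log2 fold change of that list, -0.43 ± 0.20 (SE), with an edgeR FDR of 0.378.

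Upstream, 0 of 19 tested MAP kinase kinases and their activating kinases were called, and 0 had an unadjusted p under 0.05, the median log2 fold change being 0.08. The largest absolute value was that of Map2k6, a kinase of p38, at -0.81 ± 0.51 (SE; edgeR FDR 0.579). Among 9 tested kinases downstream of MAP kinases 0 were called, with a median of -0.09, and Mknk2 alone had an unadjusted p under 0.05. Rps6ka3 had the largest absolute log2 fold change there, -0.39 ± 0.47 (SE; edgeR FDR 0.815).

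Of 14 tested genes known to be induced by ERK signalling, 3 were called higher in WT and 0 lower. Of all tested genes, 1.3% were called higher and 0.514% lower. The list's median log2 fold change was -0.14. WT and KO libraries did not overlap for 5 of the 14, and in 16.7% of all tested genes. The 3 were Fos, Ier2 and Junb, immediate early genes that many signals induce, cAMP among them. Fos was at 28.4, 56.8 and 40.9 CPM in WT and 12.5, 15.6 and 11.3 CPM in KO. Its log2 fold change was 1.68 ± 0.21 (SE), at an edgeR FDR of 5.71e-05. Ier2 was higher by 1.12 and Junb by 1.03 on the log2 scale (edgeR FDR 1.74e-08 and 1.33e-10). An exon of Prdx2 lies in the last 1000 bases of Junb on the opposite strand. Of the 14 tested genes, 6 had estimates above zero and 8 below. Ccnd1 was not called, but its WT and KO libraries did not overlap (log2 fold change 0.72, edgeR FDR 0.227). The Egr genes, which encode zinc finger factors induced through ERK, had estimates below zero. They were named outside the rule for naming genes. Log2 fold changes were -0.39 ± 0.34 for Egr1, -0.63 ± 0.36 for Egr2 and -0.60 ± 0.22 for Egr3 (SE), with edgeR FDRs of 0.762, 0.615 and 0.229, and WT and KO libraries overlapped for each. With the replicate number as a block, Egr1 and Egr2 were called lower in WT (edgeR FDR 0.0277 and 8.87e-05). Dusp1 was called in the same direction as Fos, Ier2 and Junb both without the block and with it (edgeR FDR of Dusp1 with the block 0.000174).

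**Figure D4:**
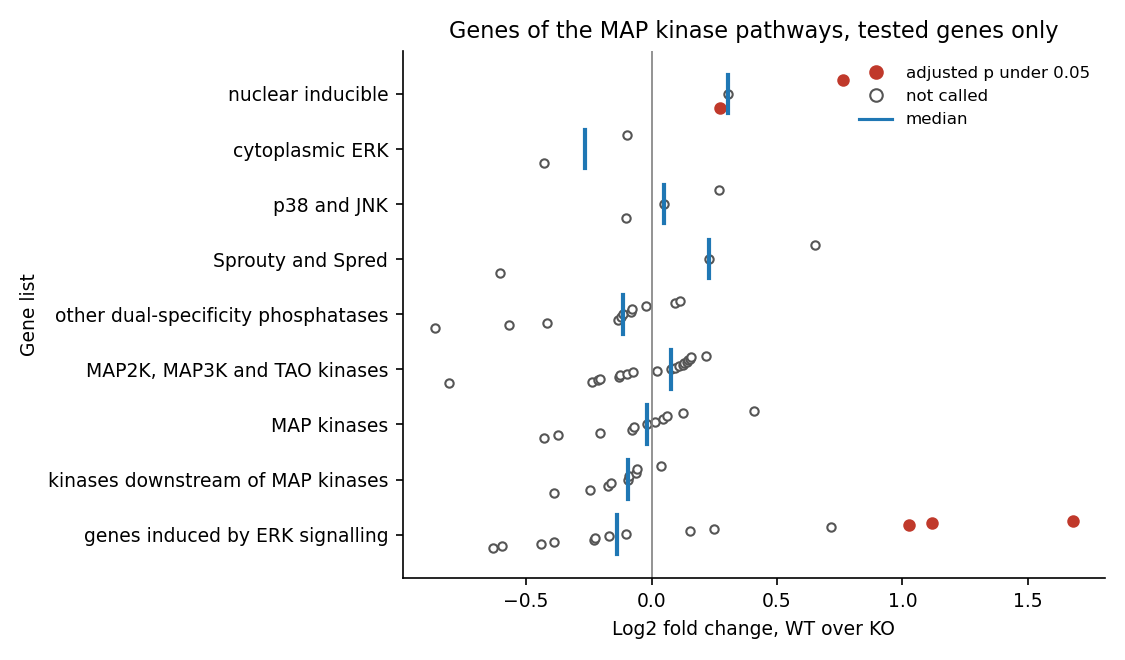
Log2 fold change, WT over KO, of each tested gene in 9 lists of MAP kinase pathway genes; red points were called at an adjusted p under 0.05, open points were not, and blue bars are list medians. The red points are Dusp1, Dusp2, Fos, Ier2 and Junb, all to the right of zero.

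The genes whose pattern over the 6 libraries was most like that of the called members were found by Pearson correlation of log2 CPM among 9675 genes. The points share the genotype difference and are only 6, so the values are descriptions. For Dusp1 they were Tmed5 (r = 0.997), Tmsb4x (0.994), which encodes the actin-binding thymosin beta 4, and Bcl2l11 (0.994), which encodes the death-promoting protein BIM. Their log2 fold changes were 0.34, 0.32 and 0.95, and each was called, with edgeR FDRs of 0.0386, 0.000622 and 1.29e-09. An exon of Mtf2 lies in the last 1000 bases of Tmed5 on the opposite strand. For Dusp2 they were Snap29 (0.996), 2810008D09Rik (0.989) and Cd86 (0.985), the gene of a costimulatory ligand. Cd86 was called (log2 fold change 0.61, edgeR FDR 0.0029), whereas Snap29 and 2810008D09Rik were not (0.173 and 0.552).

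Markers of follicular B cells were abundant in all libraries. Of 8 listed, 7 were rows (Ighd was not), and their sum was 4410 to 4578 CPM in WT and 4962 to 5176 CPM in KO, without overlap. Cd79b, a B cell receptor signalling chain, was called lower in WT (log2 fold change -0.39, edgeR FDR 0.000358). Of the 7 tested follicular markers, 2 had estimates above zero and 5 below, with a median log2 fold change of -0.07. T cells and myeloid cells also express Dusp and Sprouty genes. T cell markers (5 of 6 listed were rows, Trac was not) summed to 4.77 to 11 CPM in WT and 4.27 to 7.52 CPM in KO, with Cd3g at 0 in one KO library. Myeloid markers (6 of 6) summed to 34.1 to 48.7 CPM in WT and 32.5 to 39.4 CPM in KO. Both sums overlapped between genotypes, while all 3 tested T cell markers and all 5 tested myeloid markers had estimates above zero, the direction of Dusp1 and Dusp2, with median log2 fold changes of 0.36 and 0.53. None of these was called. NK markers (3 of 4; Ncr1 was not a row) did not overlap, at 6.03 to 10.96 CPM in WT and 3.70 to 4.36 CPM in KO, and nor did plasma cell markers (4 of 5; Jchain was not a row), at 424.3 to 505.1 and 545.1 to 608.5 CPM. Only 1 NK marker passed the filter, and it was not called. Among all tested genes, taken singly, WT and KO libraries did not overlap in 16.7%. The plasma list includes Irf4 and Xbp1, which B cells express, and Irf4 was called lower in WT (log2 fold change -0.38, edgeR FDR 0.0043). Of the 4 tested plasma markers, 2 had estimates above zero and 2 below, with a median log2 fold change of 0.007. Marginal zone B cell markers (5 of 5) overlapped, at 271.8 to 302.6 and 270.4 to 296.8 CPM, as did platelet markers (3 of 3), at 17.8 to 29.8 and 16.1 to 29.5 CPM. Erythroid markers (2 of 5, without the globin genes) overlapped too, at 29.7 to 64.5 and 34.2 to 119.9 CPM. The part of these markers in the results on Dusp1 and Dusp2 was not tested.

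**Figure D5:**
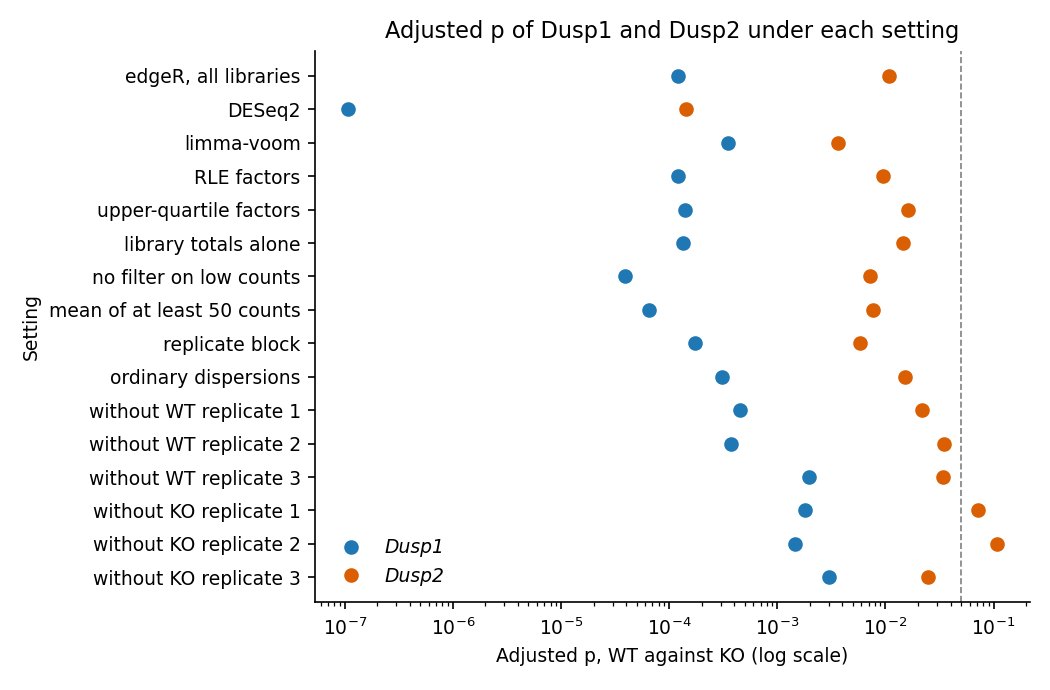
Adjusted p of Dusp1 and Dusp2 (log axis) for WT against KO in the edgeR fit of all libraries and in 15 alternatives; the dashed line is 0.05. Dusp1 lies left of the line throughout, and Dusp2 crosses it without KO replicate 1 (0.0716) and without KO replicate 2 (0.108).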

How the data were processed

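RNA from sorted follicular B cells (3 WT and 3 KO libraries, grouped by title) was prepared with a 3′-primed kit. Values as deposited are unnormalized counts of reads for each gene, which the authors made by aligning single-end reads to mm10 with STAR and counting with HTSeq. Versions, annotation and the use of strand are not given in the sources used here. The smallest row total was 10 counts, and 0 sample columns were left unused.

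Counts were filtered with filterByExpr, scaled by TMM and compared by the quasi-likelihood F test of edgeR (version 4.0.16, R 4.3.3, robust dispersions, two-sided). Benjamini-Hochberg adjustment (printed as FDR) was over all 10514 tested genes, with a threshold of 0.05. Log2 fold changes are WT over KO. Standard errors are the absolute log2 fold change over the square root of F, and 95% intervals use the t distribution with the fit's degrees of freedom. Replicates were compared by chi-square per degree of freedom, which was 6.89 to 10.9 within groups. No molecular identifiers are mentioned in the sources. The tests were checked on simulated counts.

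Named genes were all members, their relatives, called genes of each list (or the largest change where the mean was 20 counts or more), and the 3 genes most correlated with each called member (prior count 2). Some other genes were named outside this rule, among them the Egr genes, Ccnd1 and the p38 kinase genes. Members and lists were chosen with earlier results of these data known. Alternatives were DESeq2 (1.42.0), limma-voom (3.58.1), other scalings and filters, a replicate block, an adjusted p under 0.01 and omission of each library; ordinary dispersions and a sum without Dusp2 were chosen after seeing the data. Positions are from GENCODE M21. The list of Ras and Raf genes and a few other results are not reported here.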

Additional observations from a re-analysis of the deposited data

How the results depend on the processing

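Dusp1 was called in all 15 alternatives, with log2 fold changes from 0.73 to 0.78, and Dusp2 in 13, with 0.24 to 0.31. The number of members called was 2 in the main comparison, 1 at an adjusted p under 0.01 (Dusp1), and 1 to 2 with one library left out. The number of all genes called was 191, 95 at an adjusted p under 0.01, and 91 to 183 across fits that left out one library, which hold fewer samples. The other 5 tested members were called in none of the alternatives that tested them. For Spry2 and Spred1, DESeq2 gave no adjusted p, and a filter at a mean of 50 counts left both out. Dusp6, Dusp10 and Dusp16 changed sign without single libraries, always uncalled.

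Among wider lists, other dual-specificity phosphatases called lower in WT were 0 to 1 across fits that left out one library (Dusp18). Genes induced by ERK signalling called lower were 1 under DESeq2 (Mcl1, adjusted p 0.0459) and 0 to 1 across fits that left out one library (Mcl1 without WT replicate 2, Fosb without KO replicate 1). The causes were not tested. The ratio of summed nuclear inducible transcripts was 1.55 without Dusp2, by construction.

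With the replicate number as a block, 281 genes were called, 190 of them shared with the 191, and the members called were 2. The block called 1 MAP kinase lower (Mapk11, edgeR FDR 0.0481) and 2 genes of the ERK list lower (Egr1, 0.0277, and Egr2, 8.87e-05). Same-numbered libraries deviated together only weakly, with correlations of 0.067, 0.021 and 0.0497, but each library correlated best with its own number. Differently numbered libraries had correlations of -0.0513 to -0.00126. These values do not settle whether the numbers pair the libraries, and the main fit used no pairing. The all-gene median of the log2 fold change lay between -0.012 and -0.0004 under the other scalings. Depth limits the Sprouty and Spred genes, at 4.17 CPM or less in each library.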

Other observations

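Genes of the p38 kinases, on which Dusp1 and Dusp10 products act, were all at lower estimates in WT, and were singled out after their values were seen. Mapk11 was at 67.5, 54.6 and 65.8 CPM in WT and 78.7, 79.5 and 85.7 CPM in KO, which differed by -0.37 ± 0.11 (SE) on the log2 scale at an edgeR FDR of 0.0783. Mapk12 was at 19.3, 12.7 and 19.5 CPM in WT and 25.6, 20.04 and 23.8 CPM in KO. Mapk14, the widely expressed p38 gene, was at 76.8, 72.6 and 76.4 CPM in WT and 94.2, 86.4 and 79.5 CPM in KO, a log2 difference of -0.20 ± 0.10 (SE) at an edgeR FDR of 0.433. WT and KO libraries did not overlap for any of the 3, which was so in 16.7% of all tested genes, and none was called. Mapk13, the remaining p38 gene, was not among the rows.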
